A study of Mus musculus with 14 samples.

Results

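Hypomethylated regions (HMRs), stretches of the genome whose cytosines carry little methylation, were examined at the long end of their size range. All HMRs on chromosomes 1 to 19 whose end lay at least 20 kb past their start were taken, which gave 1456 of the 97247 autosomal HMRs and of the 101564 HMRs in all. The choice used length and chromosome alone, and no level entered it directly. HMRs are stretches of low methylation by definition, however, so the levels were not free to take any value. The long HMRs made up 1.5% of autosomal HMRs and 6.28% of the sequence in them, 36.4 of 580.3 Mb. Their median length was 23.3 kb (quartiles 21.2 and 27.2 kb), against 4.91 kb for the shorter autosomal HMRs. There were 525 of 25 kb or more, 202 of 30 kb or more, 29 of 40 kb or more and 4 of 50 kb or more, the longest measuring 58.5 kb.

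Levels were measured by genome-wide bisulfite sequencing in lines that had each been grown from 1 sorted cell of 4T1, a mammary carcinoma cell line of the mouse. Each level is a fraction from 0 to 1, with 1 value per clone and HMR. Clones E and T were labelled intravasating, meaning able to enter blood vessels, and clones I, K, L and P non-intravasating. No agent, transgene or deletion is named for any clone, and all share the 4T1 background and the same culture medium. Each clone is 1 line with 2 sequenced rounds and 1 column of levels. How the rounds entered that column, and whether they were separate cultures, is not stated. Group comparisons therefore set 2 clones against 4, and the p-values measure the spread between clones only. How many reads stand behind a level is not known.

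In most mammalian cells methylation covers the genome except at short regulatory stretches such as active promoters and enhancers, which appear as HMRs. Much longer stretches of low methylation are known in 2 settings. One is broad valleys over developmental regulator genes, and the other is the large partially methylated domains of cultured and cancer cells, which tend to be poor in genes. The coordinates given here are those of the deposited table. Their genome build was not established: 10 of the long HMRs, 8 on chromosome 1 and 2 on chromosome 7, ended past the last gene that RefSeq places on that chromosome in GRCm38. The last HMR of chromosome 7 ended at 152.5 Mb, whereas the last such gene ended at 145.3 Mb. The coordinates should therefore not be placed on GRCm38 (mm10). For the same reason no HMR was assigned to a gene and no sequence is shown.

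Promoter methylation of markers was read as a check of the epithelial label. The epithelial promoters of Epcam (adhesion molecule), Cdh1 (E-cadherin), Krt8 and Krt18 (keratins) had mean levels of 0.0856 to 0.258 over the 6 clones. Those of Ptprc and Cd3e (leukocytes) and of Pecam1 and Cdh5 (endothelium) were at 0.641 to 0.860. Of the fibroblast genes, Col1a1 was at 0.397 and the 2 promoters of Pdgfra were at 0.0597 and 0.560. Methylation is not expression, so these levels do not measure the presence of a cell type.

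Long HMRs were the less methylated ones. Their mean level was 0.137 in clone E, 0.115 in clone I, 0.10 in clone P, 0.0969 in clone K, 0.0694 in clone T and 0.0675 in clone L. In shorter autosomal HMRs the means were 0.195, 0.175, 0.162, 0.158, 0.123 and 0.111 in the same order of clones. All 6 clones had the lower mean in long HMRs. The ends of an HMR are set by where methylation stays low, so length and level are not independent measures. The difference within a clone averaged -0.0563 ± 0.00685 (SD, n = 6) and ran from -0.0616 to -0.0436 (exact sign-flip permutation p = 0.0312, two-sided, the smallest p that 6 clones can give). Against the HMRs of 5 to 20 kb it averaged -0.0653, and among HMRs above 0 in all 6 clones -0.0855, both with the same p. The lower level was also present on each chromosome in each clone, in 114 of 114 such means.

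The level did not change with length in one direction throughout. Averaged over clones it was 0.146 in autosomal HMRs under 1 kb, 0.0835 from 1 to 2 kb, 0.165 from 2 to 5 kb and 0.172 from 5 to 10 kb. Beyond 10 kb it lay lower in each longer class: 0.143 from 10 to 15 kb, 0.121 from 15 to 20 kb, 0.105 from 20 to 25 kb, 0.0879 from 25 to 30 kb, 0.0797 from 30 to 40 kb and 0.0781 at 40 kb or more. The last class held 29 HMRs, and in clone K its mean, 0.0906, was above that of the class before it, 0.0768. Clone E had the highest mean in each class from 2 kb upward, at 0.147, 0.125, 0.114 and 0.111 in the 4 classes of long HMRs. Clones L and T had the lowest there, at 0.0503 to 0.0725 and 0.0550 to 0.0751. Under 1 kb this order did not hold, since clone L was highest at 0.186.

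**Figure D1:**
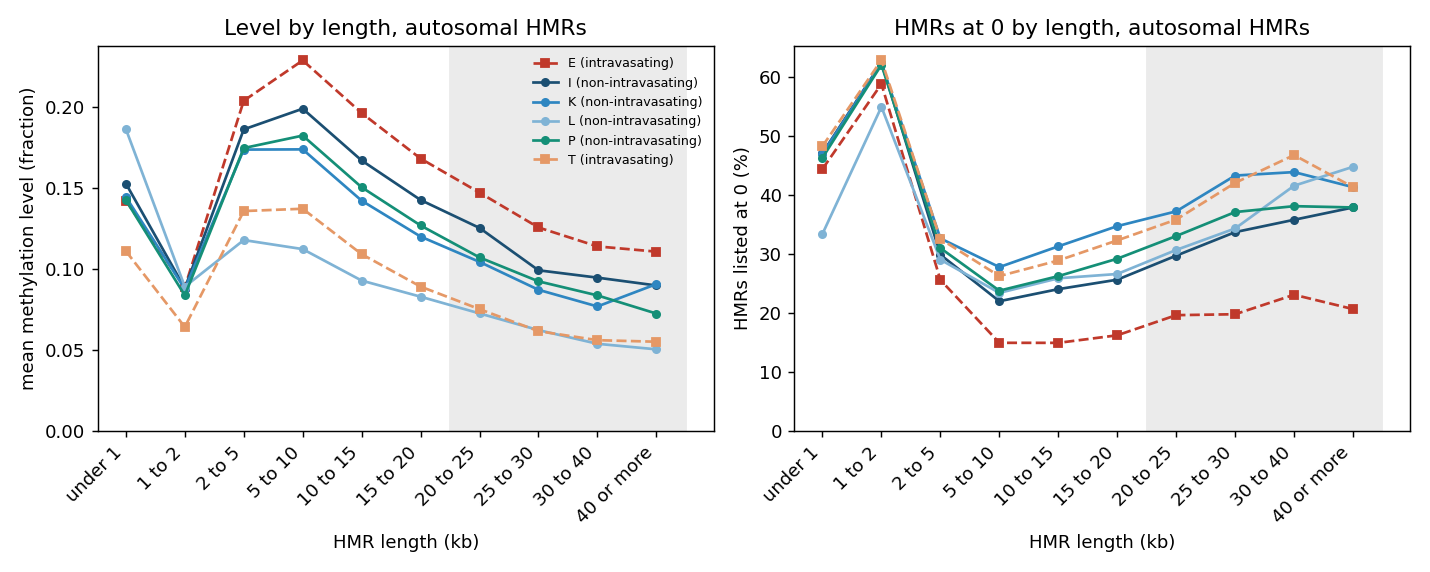
Mean methylation level (left, fraction) and percent of HMRs listed at exactly 0 (right) in each clone, by HMR length class in kb for autosomal HMRs; squares with dashed lines are the intravasating clones and the grey area marks the long HMRs. The mean peaks at 5 to 10 kb in clones E, I, K, P and T and at under 1 kb in clone L, and lies lower in each longer class beyond 10 kb except for clone K at 40 kb or more, with clone E above the rest and the lowest share at 0 among long HMRs.

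Levels of exactly 0 were common in long HMRs. The share at 0 was 20.1% in clone E, 31.5% in I, 33.1% in L, 34.7% in P, 38.7% in T and 39.5% in K. A 0 may be an unmethylated region or one with no usable estimate, and the deposited levels do not separate these. The averaging over cytosines is not given either, so a 0 need not mean that no cytosine was methylated. Among long HMRs above 0, mean levels were 0.172 in E, 0.168 in I, 0.160 in K, 0.153 in P, 0.113 in T and 0.101 in L. Clones L and T stood apart from the other 4 here and in the share of long HMRs above 0 but under 0.1, which was 36.1% in L and 28.6% in T and 12.8% to 19% in the others. Levels of 0.3 or more were seen in 104 long HMRs in E, 74 in I, 51 in P, 41 in K, 11 in T and 4 in L. At 0.5 or more there were 20 in E, 8 in I, 3 in K, 2 in P, 1 in T and 0 in L.

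**Figure D2:**
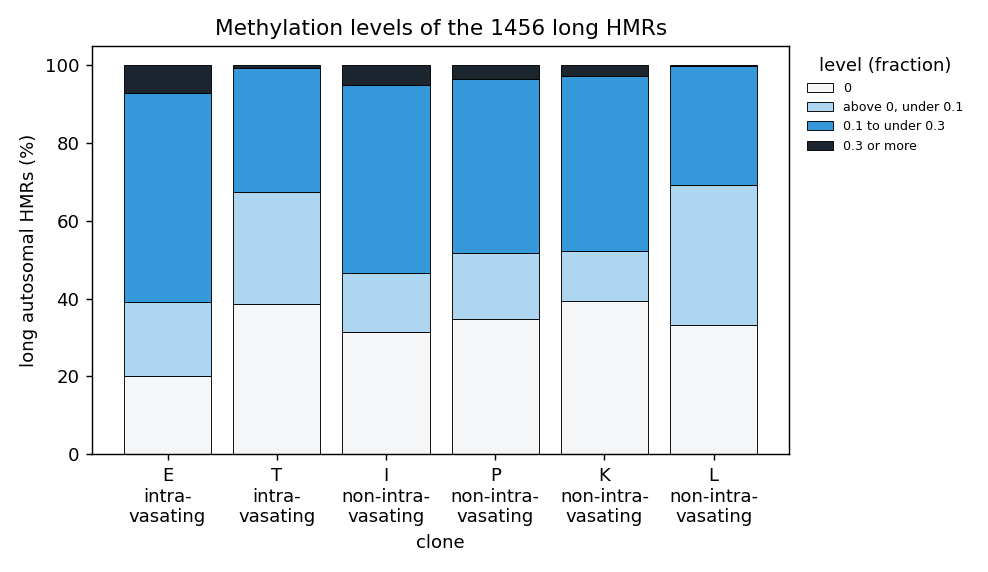
Percent of the 1456 long HMRs in 4 classes of methylation level (fraction), stacked per clone and marked with the labelled group. Clone E has the smallest share at 0 (20.1%) and clones T and L have the largest shares between 0 and 0.1 (28.6% and 36.1%).

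Most levels took few distinct values. Of the 5859 levels above 0 in long HMRs, 66.3% lay within 2e-06 of a ratio of whole numbers with a denominator of at most 30, and only 768 distinct values occurred. In shorter HMRs the share was 60.8%. How the authors turned cytosines into 1 level per region is not given, and small differences between long HMRs may be single steps of this scale.

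The clones fell into a recurring order by means and by pairs, but few single HMRs showed it in full. The full order, E over I over K and P over L and T, held in 75 long HMRs. That was 5.15%, against 3.04% of shorter HMRs and 4.35% of those of 5 to 20 kb. Clone E exceeded clone T in 1097 long HMRs and was below it in 78, and it exceeded clone L in 1092 and was below it in 93. Clones K and P were level, with K higher in 496 and P higher in 485. Clones L and T were also level, with 504 and 529. Clone E was alone in the highest place in 541 long HMRs and clone I in 262, while clone L was alone in the lowest place in 370 and clone T in 272. For E this was 37.2%, against 27.1% of shorter HMRs and 34.2% of those of 5 to 20 kb. For L it was 25.4%, against 25.9% and 31.6%, so these places were not particular to long HMRs. By mean absolute difference L and T were the closest of the 15 pairs (0.0310) and E and L the farthest (0.0742). E and T, the intravasating pair, ranked 14 of 15 from the closest (0.0722). Pearson r between clones over the 1456 long HMRs, which ignores shifts of a whole clone, was 0.772 to 0.846, highest for I and P, with E and T at 0.781. These values share the regions and the libraries and are descriptions.

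Clone E had the fewest zeros, but the other clones did not follow the order of the mean levels: clone K had the most and clone L, lowest in mean, the third fewest. At 0 in all 6 clones were 230 long HMRs (15.8%, against 17.9% of shorter HMRs and 9.79% of those of 5 to 20 kb). Another 692 long HMRs were above 0 in all clones, and the rest were mixed. Exactly 1 clone was above 0 in 102, and in 73 of these it was clone E, then T with 10 and L with 7. Exactly 2 clones were above 0 in 82, and clone E was 1 of the pair in 62: with I in 21, L in 15, P in 13, T in 8 and K in 5. When a single clone was at 0 (147 long HMRs), it was most often T (43), K (36) or L (28), and it was E in 2.

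The comparison stated in the series design, intravasating against non-intravasating, found little in long HMRs. The intravasating clones had a mean level of 0.103 ± 0.0481 (SD, n = 2) and the non-intravasating ones of 0.0949 ± 0.0199 (SD, n = 4), with a two-sided exact permutation p of 0.80. With 15 ways to choose 2 of 6 clones that test cannot go below 0.0667. The intravasating clones E and T sat at nearly opposite ends, so the sign rested on single clones: the difference of 0.00854 became -0.0255 without clone E, -0.000589 without clone L and 0.0426 without clone T. The intravasating mean was above the other on 16 of 19 chromosomes, and the median difference per long HMR was 0.

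Region by region, limma (fitted over all HMRs, Benjamini-Hochberg adjusted) called 3 long HMRs, all higher in the intravasating clones, or 0.206% of them, close to the 0.16% called over all HMRs (0.158% higher and 0.00197% lower). An unadjusted p under 0.05 was found for 21 of them (19 higher, 2 lower), or 1.44%, against 2.97% over all HMRs. The first called HMR, on chromosome 4 between 68787814 and 68810862, had a level of 0.0526 in E and 0.0588 in T (limma adjusted p = 0.000923). Another called one was on chromosome 9 from 28560070 to 28580841, at 0.0769 in E and 0.0625 in T (limma adjusted p = 0.0103). The last was also on chromosome 4, from 76985904 to 77013711, at 0.0955 in E and 0.0718 in T (limma adjusted p = 0.0316). All 3 were listed at 0 in clones I, K, L and P, so the groups did not overlap. The differences were only 0.0557 ± 0.00179, 0.0697 ± 0.00400 and 0.0836 ± 0.00652 (SE) on the fraction scale. These SEs rest on 4 equal non-intravasating values (SD 0), and those zeros may be missing estimates. A larger difference on chromosome 10 from 124255266 to 124275498, 0.158 ± 0.0509 (SE), was not called. None of the 3 stayed called after each clone was centred on its median (limma adjusted p = 0.969 for all 3). Their differences were then 0.0489, 0.0629 and 0.0768. Centring turned the 4 equal zeros into unequal values, so it added spread by construction, and the lost calls do not test the differences.

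With any 1 of clones I, K, L or P left out, the HMR on chromosome 9 was not called (limma adjusted p = 0.0617 to 0.0780). The one ending at 77013711 was not called either (0.137 to 0.176), and it was also lost without the mean trend (0.0975). The first called HMR, ending at 68810862, stayed called in these fits (0.0120 to 0.0156) and without the mean trend (0.0117). Its SE still rests on equal zeros in the non-intravasating clones. A further one with this shape, on chromosome 4 between 21147866 and 21169217, had 0.0909 in E and 0.0625 in T against 0 in the others and was not called (limma adjusted p = 0.0818). In all, 8 long HMRs (0.549%) were above 0 in E and T alone, fewer than the 21 for E and I. The matching share over all HMRs was not counted, so whether 8 is unusual is not known.

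No long HMR had the groups 0.2 apart, against 0.0699% of all HMRs, and none had them 0.1 apart, against 0.604%. Without overlap by any margin there were 57 (3.91%, against 6.09% of all HMRs): 43 higher (2.95%, against 3.98%) and 14 lower (0.962%, against 2.12%) in the intravasating clones, with median gaps of 0.0184 and 0.00788. The widest gap among the higher ones was 0.0718, at the called HMR on chromosome 4 ending at 77013711. Outside those listed at 0 in 4 clones, the widest was on chromosome 10 from 124255266 to 124275498: 0.250 in E and 0.158 in T against 0, 0.101, 0 and 0.0833 in I, K, L and P. In the lower direction the widest gap was 0.0411, in a 35.0 kb HMR of chromosome 16 between 84033818 and 84068867, at 0.0714 in E and 0 in T against 0.143, 0.143, 0.160 and 0.113. Next came an HMR on chromosome 19 from 35792160 to 35814270, listed at 0 in both E and T against 0.0917, 0.106, 0.0258 and 0.0955. The other 3 lower ones named had gaps of 0.0225 (chromosome 18 from 30260994 to 30283467), 0.0179 (chromosome 14 from 10580415 to 10606096) and 0.0128 (chromosome 2 from 159490109 to 159512904). None of these was called by limma (adjusted p = 1).

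Differences between clones were smaller in long HMRs than in shorter ones. The median range over the 6 clones was 0.108 against 0.167, and a range of at least 0.2 occurred in 174 long HMRs (12.0%) against 40.9% of shorter ones. Within the long HMRs it occurred in 13.6% at 20 to 25 kb, 11.1% at 25 to 30 kb and 5.2% at 30 to 40 kb, and in 2 of the 29 at 40 kb or more. Lower levels leave less room for a range, and relative to the mean the 2 sets were nearer: among HMRs above 0 in all clones the median ratio of range to mean was 0.837 in long and 0.925 in shorter ones. Clone E stood at least 0.2 above the median of the other 5 in 37 long HMRs and below it in 0, clone I above in 13, and clone L below in 14. Clone P was never that far from the others.

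The 6 long HMRs with the widest range all had clone E highest. On chromosome 6 from 130176528 to 130198759 the levels were 0.750 in E, 0.423 in I, 0.333 in K, 0.304 in P, 0.222 in T and 0.20 in L. Chromosome 5 from 80499390 to 80523212 had 0.50 in E and 0 in T, with L, P, I and K at 0.314, 0.312, 0.236 and 0.174 between them. This was also the HMR at which clone T stood farthest from the others. On chromosome 1 from 150668519 to 150689622, E was at 0.667 and I at 0.50, P and K at 0.333 and 0.319, and T and L at 0.174 and 0.167, which is the order of the clone means. Chromosome 17 from 70554753 to 70578178 ran from 0.441 in E to 0 in T, and chromosome 12 from 37622256 to 37644938 from 0.571 in E to 0.143 in L.

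At the HMR on chromosome 5 clone L, lowest by its mean over long HMRs, was second. On chromosome 9 from 80386971 to 80409592, E (0.524) and I (0.50) stood together, apart from L at 0.176, P at 0.143, T at 0.125 and K at 0.05. The nearest long HMR, 1069 kb away (from 81478342 to 81503189), repeated this: 0.538 and 0.50 in E and I against 0.136 to 0.167 in the others. The 18 shorter HMRs within 250 kb of the first averaged 0.417 in E and 0.383 in I against 0.106 to 0.158. E is intravasating and I is not, so this split is not the one by label.

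**Figure D3:**
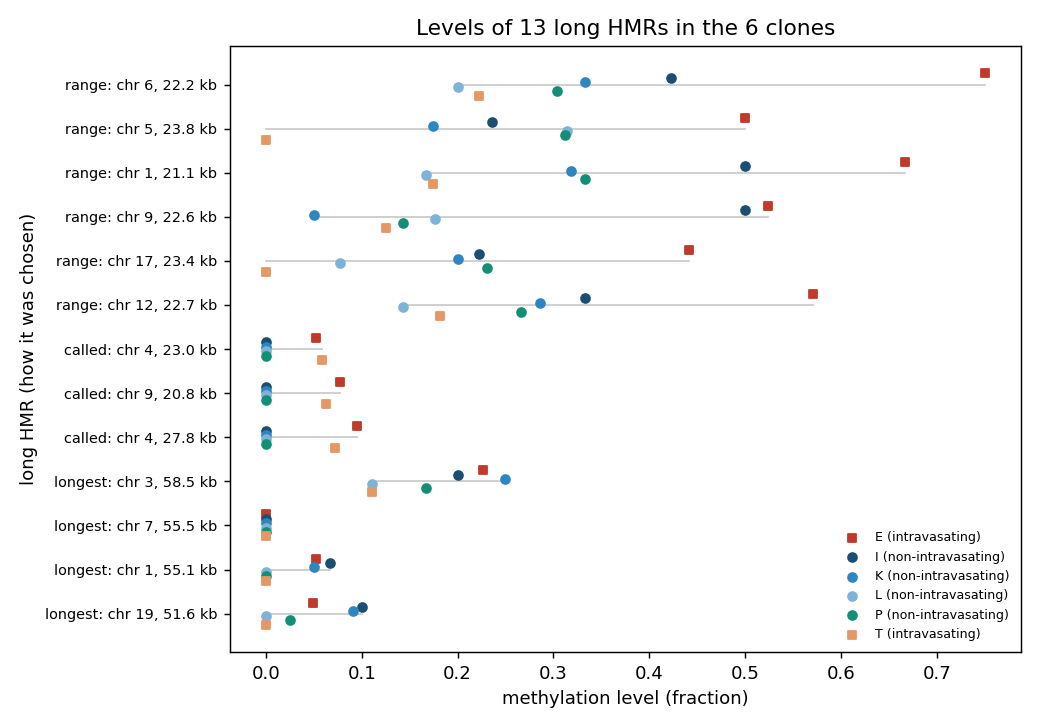
Methylation level (fraction) of 13 long HMRs, 1 per row, in each clone: the 6 with the widest range over clones, the 3 called by limma and the 4 longest; squares are intravasating clones, and points are shifted vertically so that equal values can be seen. The called HMRs differ by under 0.1 between groups, while the widest ranges run up to 0.55 with clone E highest.

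The others of the 6 resembled their surroundings to differing degrees. Around the one on chromosome 1, 22 shorter HMRs within 250 kb averaged 0.682 in E, 0.558 in I, 0.371 in K, 0.331 in P, 0.197 in T and 0.192 in L, close to the levels of the long HMR itself. Around the one on chromosome 6 the shorter HMRs were at 0.335 in E and 0.0491 to 0.107 in the other 5 clones, well below the 0.20 to 0.423 of those clones in the long HMR, and its nearest long HMR was at 0.0769 in E and 0 in the rest. Around the one on chromosome 12 they were at 0.477 in E and 0.115 to 0.223 in the others. On chromosome 17 they ran from 0.416 in E to 0.126 in L, with T at 0.183 against 0 in the long HMR, and the nearest long HMR was at 0.0339 in E and 0 in the rest. On chromosome 5, a long HMR 23.4 kb away (from 80448713 to 80476011) had 0.349 in E, 0.306 in P, 0.207 in L, 0.182 in I, 0.0729 in T and 0.0526 in K. Over the 174 long HMRs with a range of at least 0.2, a clone's deviation from the 6-clone mean correlated with that of its shorter neighbours within 250 kb with r = 0.731 for E, 0.614 for L, 0.552 for T, 0.50 for P, 0.469 for K and 0.450 for I. For the 1282 with a smaller range r was 0.213 to 0.489, and over all 1456 long HMRs it was 0.304 to 0.621. The split by range used the same levels as the deviations. A cut on range limits the spread of the deviations, which by itself can lower r. The split therefore cannot show whether HMRs with a wider range follow their neighbours more closely. Long HMRs and neighbours share the libraries, and clone-wide shifts are part of these deviations.

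Away from clone E, extremes were milder. Clone K stood farthest from the others on chromosome 3 from 114517317 to 114544349, at 0.50 against 0.167 to 0.393. Clone P did so on chromosome 6 from 109342728 to 109362986, where P, I and E (0.417, 0.40 and 0.375) were apart from K, T and L (0.222, 0.125 and 0.111). Clone L stood lowest on chromosome 13 from 80334600 to 80359033, at 0.20 against 0.375 in T and 0.481 to 0.613 in the rest. That HMR had the second highest mean of all long ones, 0.459. The highest mean, 0.508, was on chromosome 2 from 47619255 to 47639578 (0.667 in E and I, 0.286 in L), and 0.399, the next after these, was on chromosome 10 from 129787692 to 129807927. Every clone was at 0.3 or more in 1 long HMR, and every clone was under 0.1 in 454 (31.2%, against 25.4% of shorter HMRs).

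At the low end, among those above 0 in all clones, the smallest mean was 0.0336, on chromosome 9 from 33128322 to 33157441, with levels of 0.0222 to 0.0476. It was followed by an HMR on chromosome 12 from 116057178 to 116078213 (0.02 to 0.08) and another on chromosome 9 from 10682465 to 10703978 (0.0323 to 0.0625). Ranges over clones were 0.0254, 0.06 and 0.0302.

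The longest HMRs were mostly, but not always, low. The longest, 58.5 kb on chromosome 3 from 112009728 to 112068272, was above 0 in all clones: 0.250 in K, 0.226 in E, 0.20 in I, 0.167 in P and 0.111 in both L and T. The next, 55.5 kb on chromosome 7 from 51202103 to 51257599, was listed at 0 in all 6 clones, as was its nearest long neighbour 90.6 kb away. The 33 shorter HMRs within 250 kb of it were not at 0, with means of 0.0524 in T to 0.138 in E.

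Another 2 exceeded 50 kb. On chromosome 1 from 174815542 to 174870627 the levels were 0.0520, 0.0667 and 0.05 in E, I and K and 0 in L, P and T. On chromosome 19 from 51048147 to 51099777 clone I was highest at 0.10, with K at 0.0909, E at 0.0488, P at 0.025, and L and T at 0. The next 4 measured 46.7 to 49.1 kb. Chromosome 11 held 2 of them, at 0.111 to 0.20 (from 93312452 to 93359387) and at 0.0477 to 0.125 (from 55783397 to 55830203). The one on chromosome 12 from 118048319 to 118097418 was at 0 to 0.0625. The one on chromosome 6 from 121993462 to 122040121 was at 0.143 in both E and K and at 0 in I and P. In the 8 longest, E was alone in the highest place in 1.

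Around the 20 kb limit the levels varied widely on both sides. Just inside were HMRs of 20.001, 20.006 and 20.009 kb, with levels of 0.143 to 0.555, 0 to 0.125, and 0 in all clones but T (0.148). Just outside were HMRs of 19.997, 19.995 and 19.994 kb, with levels of 0.165 to 0.563, 0 to 0.10 and 0 to 0.20.

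Long HMRs were unevenly spread over chromosomes. They were most numerous on chromosome 1 (164), 6 (134), 7 (125) and 8 (115) and least on chromosome 10 (24) and 13 (26). As a share of a chromosome's HMRs they ran from 0.742% on chromosome 10, 0.837% on 17 and 0.912% on 13 to 1.92% on chromosome 1 and 2.13% on 6. By the position of the last HMR, chromosome 6 had 8.98 per 10 Mb and chromosome 10 had 1.85. Chromosomes 10 and 13 also had short HMRs, with medians of 4.41 and 4.29 kb, but chromosome 11, with 1.55% long ones, had a shorter median still (4.24 kb).

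Levels differed between chromosomes. Averaged over clones, long HMRs were at 0.170 on chromosome 1, 0.145 on 3 and 0.130 on 2, and at 0.0605 on chromosome 18 and 0.0516 on 7. On chromosome 1 only 1 of 164 was at 0 in all clones (0.610%), whereas on chromosome 7 it was 40 of 125 (32%), on 18 it was 24 of 71 (33.8%) and on 13 it was 11 of 26 (42.3%). The shorter HMRs had a related order, at 0.205 on chromosome 1 and 0.117 on 7, and over the 19 chromosomes the 2 means had r = 0.778. Copy number of the 4T1 chromosomes was not measured, and its part in these differences was not tested.

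**Figure D4:**
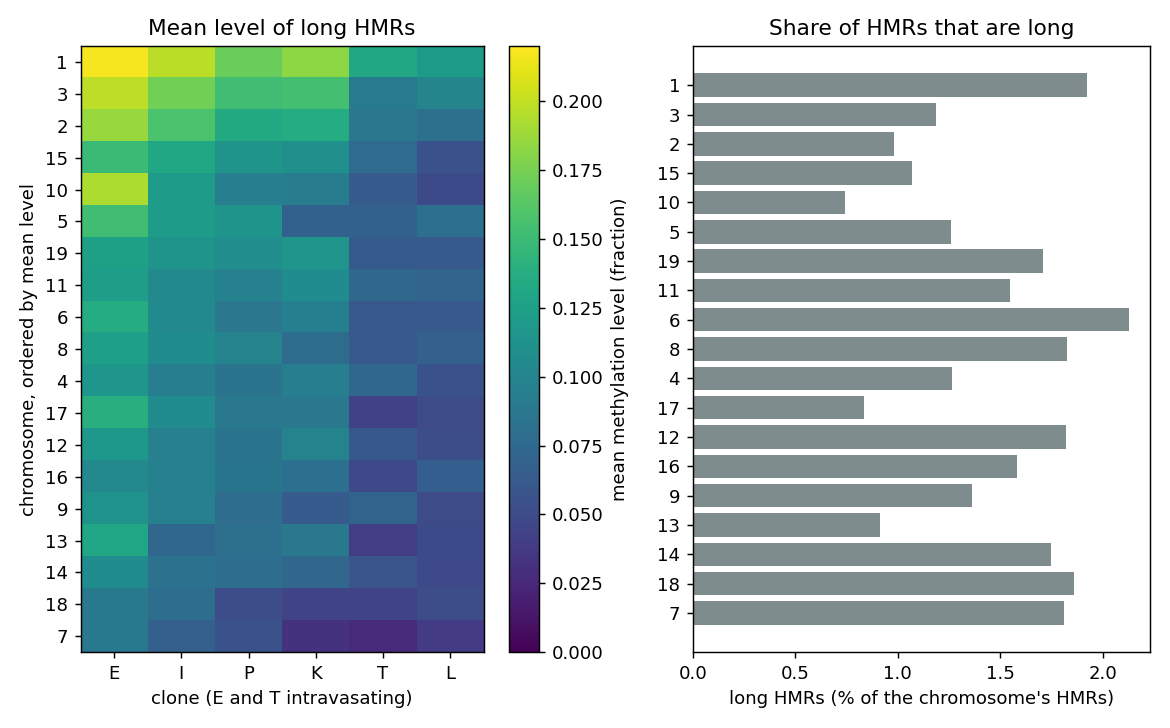
Left, mean methylation level (fraction) of long HMRs by chromosome and clone, chromosomes ordered from the highest mean (top) to the lowest; right, long HMRs as a percent of all HMRs of that chromosome. Chromosome 1 is highest and 7 lowest in mean level, and clone E has the highest mean on each of the 19 chromosomes.

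The order of clones held on most chromosomes. Clone E had the highest mean on 19 of 19, clone I was second on 14, and the lowest was L on 11 and T on 8. L and T were the bottom pair on 15. The departures were specific chromosomes in specific clones. On chromosome 10 clone E was at 0.193 against 0.121 in I and 0.0494 in L, a deviation of 0.0509 above what its mean and the chromosome's mean would give. On chromosome 5 clone K was at 0.0685, below P (0.113), I (0.121) and L (0.0804), with a deviation of -0.0313. It was also low on chromosome 7, at 0.0325 (deviation -0.0182). Clone L was relatively high on chromosome 18 (0.0521, deviation 0.0219), and clone T was relatively high on chromosome 9 (0.0713, deviation 0.0208) and low on chromosome 3 (0.0917, deviation -0.0250).

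Shorter HMRs of the same chromosomes showed the same deviations in most cases. Of the 114 deviations, 91 had the same sign in long and shorter HMRs (r = 0.741). On chromosome 10 clone E deviated by 0.0387 in shorter HMRs, and clone K by -0.0149 on chromosome 5 and -0.0201 on 7. The widest disagreement in sign was on chromosome 16. There clone E deviated by -0.0159 in its 53 long HMRs and by 0.0216 in shorter ones, and the difference between the 2 was not tested.

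**Figure D5:**
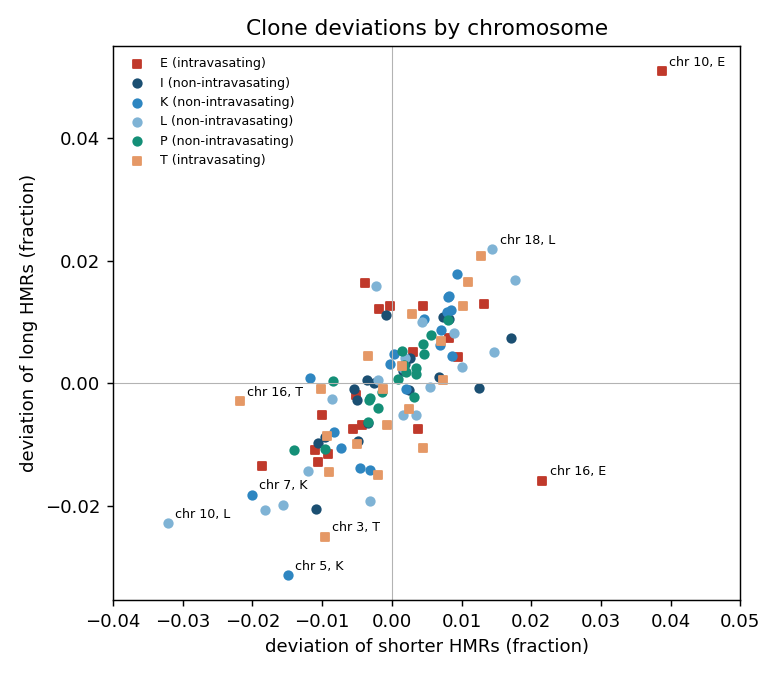
Deviation of each clone's mean level (fraction) on each chromosome from the sum of its clone and chromosome effects, for long HMRs (vertical) against shorter HMRs (horizontal); 114 points, squares for intravasating clones. Most points lie along the diagonal, with clone E on chromosome 10 at 0.0387 and 0.0509, and clone E on chromosome 16 opposite in sign.

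Long HMRs lay near each other. Another long HMR was within 100 kb for 631 of them (43.3%), compared with 24.8% of the HMRs of 5 to 20 kb that had a long one within 100 kb, and the median distance was 126 kb against 337 kb. Runs with at most 100 kb between neighbours numbered 259, of which 25 held 4 or more. The longest run, on chromosome 16 from 5614661 to 5913368, held 7 long HMRs covering 171.6 of its 298.7 kb. Its clone means were 0.00549 in K and 0 in the other 5 clones. A run of 6 on chromosome 14 from 49958095 to 50301254 was at 0 to 0.0246. Another, of 5 on chromosome 1 from 174668139 to 174978775, had higher means, from 0.0474 in T to 0.149 in E, so not all runs were near 0.

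Crowded long HMRs were lower than isolated ones. Those with another within 100 kb averaged 0.0842 over clones, with 18.9% at 0 in all clones, and the 163 with none within 1 Mb averaged 0.137, with 11.7%. The difference was seen in each clone, from 0.117 against 0.201 in E to 0.0602 against 0.0838 in L. Shorter HMRs within 100 kb of a long one were also lower than those beyond 1 Mb, 0.127 against 0.163, but fewer of them were at 0 in all clones, 12.0% against 23.6%. They were longer too, with medians of 6.66 and 3.47 kb, and the part of length in this difference was not tested. Consecutive long HMRs had similar levels, with r = 0.555 for the mean level in the 372 pairs under 100 kb apart, 0.373 in the 652 pairs from 100 kb to 1 Mb and 0.152 in the 413 pairs farther apart.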

How the data were processed

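Bisulfite libraries of 6 clones of 4T1 were used; the labels list 14 libraries, 2 rounds per clone and for the parental line, which was not analysed here. The authors deposited methylation levels as fractions, 1 column per clone, for HMRs and for promoters. Per the submitters' processing notes bedtools, DESeq and mm10 were named with no role; for the aligner, the HMR caller and the averaging, the method was not given in the sources used here. No read counts come with the levels, so they were compared as fractions. Some HMRs lie past the last GRCm38 (mm10) gene of their chromosome, so the coordinates were not read as mm10 positions.

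Long HMRs were those on chromosomes 1 to 19 with end minus start of at least 20000 bp. Levels were compared with limma 3.58.1 (R 4.3.3; eBayes, mean trend) over all 101564 HMRs and called at a Benjamini-Hochberg adjusted p under 0.05. The groups were termed separated when the nearest clones of the 2 groups were at least 0.2 apart. Clone means were compared by exact permutation. The limma step was tested on simulated normal data, with changes added only to HMRs that varied between clones and had means away from 0. That simulation does not cover HMRs listed at 0 in most clones, such as the called ones. Python 3.11.15, pandas 2.3.3 and NumPy 2.4.6 were used otherwise.

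Regions were named by rule: the 8 longest; the 6 with the widest range; up to 5 per direction, called first and then by gap; the 3 highest and 3 lowest means; the 1 farthest from the others for each clone; and 3 on each side of 20 kb. The regions, lists and tests were chosen with earlier results of these data known. The windows of 100 and 250 kb, the runs named and the neighbours of named HMRs were chosen after values were seen. Alternatives were other length limits, scales, filters, gaps and comparison sets, and each clone left out.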

Additional observations from a re-analysis of the deposited data

Results flagged for a closer look

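The 4 non-intravasating clones were compared in 56 groups of values (clone means, shares at 0, chromosome means and named HMRs). In 2 of these a clone was far from the other 3 relative to the spread. Chance gives about 1 in 20 only where groups are not chosen by their values. Many HMRs were named for their range or for the distance of 1 clone, so that rate does not apply to them. On chromosome 19 the mean level of long HMRs was 0.0624 in clone L against 0.108 to 0.115 in clones I, K and P. At the HMR on chromosome 9 from 10682465 to 10703978 clone L was at 0.0625, while the other 3 were all at 0.0526. With the other 3 equal, any different value is flagged, and this difference is small on the coarse scale of the levels.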

How the results depend on the processing

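The lower mean of long HMRs within a clone kept its direction and p of 0.0312 with limits of 15 and 30 kb, against HMRs of 5 to 20 kb, among HMRs above 0 in all clones, as a median and weighted by length (-0.0855 to -0.0416). With clone E, I, K, L, P or T left out it was -0.0560, -0.0556, -0.0553, -0.0588, -0.0552 and -0.0568, where 5 clones cannot give a p below 0.0625. The difference between the groups in mean level stayed between 0.00321 and 0.00987 under the other settings and ran from -0.0255 to 0.0426 with 1 clone left out, and was negative without E or L (-0.000589). The limma count of 3 became 6 on the logit and arcsine scales, 2 without the mean trend, 5 at an adjusted p under 0.10, 11 at a limit of 15 kb and 0 at 30 kb (4 with an unadjusted p under 0.05). It was 0 after centring (10 with an unadjusted p under 0.05), 0 when only HMRs with a range of 0.1 or more were fitted (3 unadjusted) and 0 among those above 0 in all clones (2 unadjusted). These filters leave out HMRs at 0 in 4 clones or with small differences by construction. Centring likewise gives equal zeros unequal values by construction. With 1 clone left out it was 1 to 86, with 86 without T and 18 without E, where 1 intravasating clone remains and is assumed to vary like the others. The count of separated long HMRs was 0, 1 at a limit of 15 kb and 57 for any gap above 0. It was 0 to 9 with 1 clone left out (1 without E, 9 without T). With a clone left out, the matching share over all HMRs was not counted. No paired analysis was possible because each clone has 1 column and the rounds have none of their own. Depth is unknown, so what it limits could not be assessed.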
